A study of Mus musculus with 168 samples.

Results

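Neurons cut by laser from the lumbar spinal cord of mice with spinal muscular atrophy (SMA) were followed from postnatal day 2 through day 5 to day 10, across all genes. The libraries were chosen by their group labels alone: every lumbar SMA library of the 3 ages, which is 18 of the 168 libraries of the series, from 17 mice. There were 7 SMA mice at day 2, 5 at day 5 and 5 at day 10. Each mouse counted once: the 2 libraries of day 2 mouse 206 were merged into their mean. Normal maturation was read from 13 lumbar control libraries of 13 mice, with 4 mice at day 2, 5 at day 5 and 4 at day 10. SMA mice were Smn-/-/SMN2+/+/SMN∆7+/+, the delta7 model, which lacks the mouse Smn1 gene and lives on human SMN2 and a human SMN transgene without one exon. Controls were Smn+/+/SMN2+/+/SMN∆7+/+ littermates, so both groups carried the human transgenes. Per the labels, about 150 cells were pooled per tube and turned into libraries with Smart-seq2, a method for full-length cDNA, and Tn5 tagmentation. Values are RPKM, reads scaled to gene length and to library depth.

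Spinal motor neurons are born before birth and mature after it. In the first postnatal weeks their axons stop growing and the growth cone machinery is switched off, neurofilaments fill and widen the axon, and sodium and potassium channels for fast firing replace fetal forms. Over the same time fetal receptor subunits are exchanged for adult ones, a perineuronal net forms around the cell, and surrounding oligodendrocytes make myelin. SMA is caused by too little SMN protein, which assembles the small nuclear ribonucleoproteins of the spliceosome, and lumbar motor neurons are among the cells that degenerate.

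The labels held against the markers. Smn1 was listed at 0 in the SMA mice except for 2 day 5 mice at 0.860 and 1.22 RPKM, while controls ran from 11 to 43.8 RPKM over the 3 ages. All 6 motor neuron markers in the table were above 0 in each lumbar mouse, and their summed level, carried mostly by the intermediate filament gene Prph, stayed in one range. Taken singly, 2 of the 6 rose (Chat and Mnx1) and 1 fell (Isl1) in SMA between days 2 and 10. In controls 1 rose and 1 fell. In SMA mice the sum ran from 1221 to 1857 RPKM at day 2 (median 1547), from 1323 to 2021 at day 5 (median 1593) and from 1373 to 1556 at day 10 (median 1485). Depth per SMA library was 2.32 to 7.88 M reads, and the day 10 libraries, at 2.32 to 5.42 M, were shallower than the day 5 libraries, at 5.55 to 7.88 M. The library numbers in the labels did not overlap between the ages, in SMA or in controls. The labels do not say what those numbers track, and whatever it is cannot be told apart from age in either genotype. The comparison with controls does not separate the 2. Within an age, SMA mice correlated across genes with a median r of 0.934 at day 2, 0.912 at day 5 and 0.933 at day 10, against 0.905 between days 2 and 10.

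**Figure D1:**
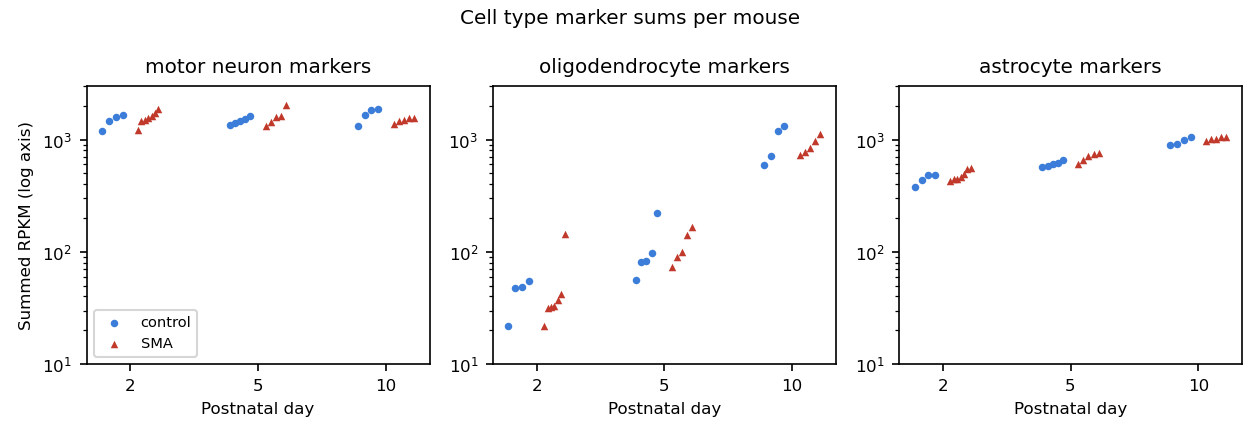
Summed RPKM of marker genes in each mouse (log axis) against postnatal day, for 6 motor neuron, 12 oligodendrocyte and 9 astrocyte markers. Points are mice, sorted by value within a group, with controls as circles and SMA as triangles. The motor neuron sum of SMA mice stays between 1221 and 2021 RPKM, while the oligodendrocyte sum goes from a median of 32.8 at day 2 to 846 at day 10.

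Markers of oligodendrocytes, the cells that make myelin, moved with age in both genotypes. All 12 rose in SMA between days 2 and 10 and 11 rose in controls. Their summed level in SMA mice was 21.9 to 144 RPKM at day 2, 72.9 to 166.3 at day 5 and 729 to 1118 at day 10. The 144 RPKM belonged to mouse 206. Every day 10 mouse stood above every younger mouse, and the control medians were 48.1, 82.9 and 960 RPKM. As a share of all RPKM of a library, the sum had a median of 0.00491% at day 2 and 0.123% at day 10 in SMA. The captured tissue therefore held more oligodendrocyte RNA at day 10, and in pooled cells more cells of a type and more RNA per cell cannot be told apart. The astrocyte sum went from a median of 462 to 1019 RPKM, most of it S100b, which motor neurons also express. None of the microglia, vessel, inhibitory interneuron, fibroblast or blood markers tested (9, 5, 5, 4 and 4 genes) passed the test between days 2 and 10 in either genotype, nor did any of 5 sex-linked genes. The summed inhibitory interneuron markers in SMA were at 20.6 to 31.8 RPKM at day 10, against 4.32 to 15.03 at day 5 and 6.06 to 35.4 at day 2, and in controls at 3.17 to 59.9 at day 10 and 9.54 to 47.8 at day 2. All 5 inhibitory interneuron markers had a positive change in SMA and 1 in controls. For 2 of them the SMA change minus the control change had an unadjusted p under 0.05 by limma. The part of these cells in the results below was not tested. The part of the oligodendrocyte material in the changes of neuronal genes below was not tested.

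Between days 2 and 10, SMA lumbar neurons changed 3007 of 16382 genes tested (18.4%): 1401 rose (8.55%) and 1606 fell (9.8%). The test was limma on log2(RPKM + 1), with all 6 lumbar groups in the fit and an adjusted p under 0.05 by the method of Benjamini and Hochberg. In controls 1967 genes changed (12%), of which 779 rose (4.76%) and 1188 fell (7.25%). Counts in the gene lists below are to be read against these shares, and a count near them is no result about its list. When mice were forced to the same distribution of values by quantile normalization, the control split moved to 979 rises and 944 falls, while the SMA split moved little, to 1434 and 1575. Without day 2 mouse 206, the SMA count was 2825 (1338 rises and 1487 falls). The counts of the genotypes are not comparable in size, since SMA had 7 and 5 mice and controls 4 and 4. All changes below are day 10 minus day 2 on the log2(RPKM + 1) scale unless said otherwise, and that scale understates changes of low genes. The median change over all genes was -0.0195 in SMA and -0.104 in controls.

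Most of the normal program was present. Of the 1967 genes that changed in controls, 1329 (67.6%) changed the same way in SMA, 2 changed the opposite way and 636 did not pass. By direction, 549 of the 779 control rises (70.5%) and 780 of the 1188 control falls (65.7%) were called in SMA. Of the 636 genes that did not pass, 551 had the control sign in SMA, so that 95.6% of the control genes had the same sign, against 68.3% of all genes tested. The 1329 shared genes were 44.2% of the SMA calls. Across genes the changes of the genotypes had a Pearson r of 0.619 and a Spearman rho of 0.536, which is a description over 16382 genes that share their mice, and no mouse was in both contrasts.

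Step size has to be read with the selection in mind, since genes picked for passing in one genotype show an inflated change there. Control rises had a median of 1.06 in controls and 0.74 in SMA, and control falls had medians of -1.08 and -0.78. Starting from SMA calls the order turned, with medians of 0.91 in SMA and 0.59 in controls for rises, and -0.93 and -0.73 for falls. The test of the difference itself, SMA change minus control change, called no gene at an adjusted p under 0.05 (0%), with a smallest adjusted p of 0.0584. At an unadjusted p under 0.05 it listed 1378 genes (8.41%). No maturation step was thus shown to be lost or weaker by that test. Genes named below by their unadjusted p of the difference are a description.

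**Figure D2:**
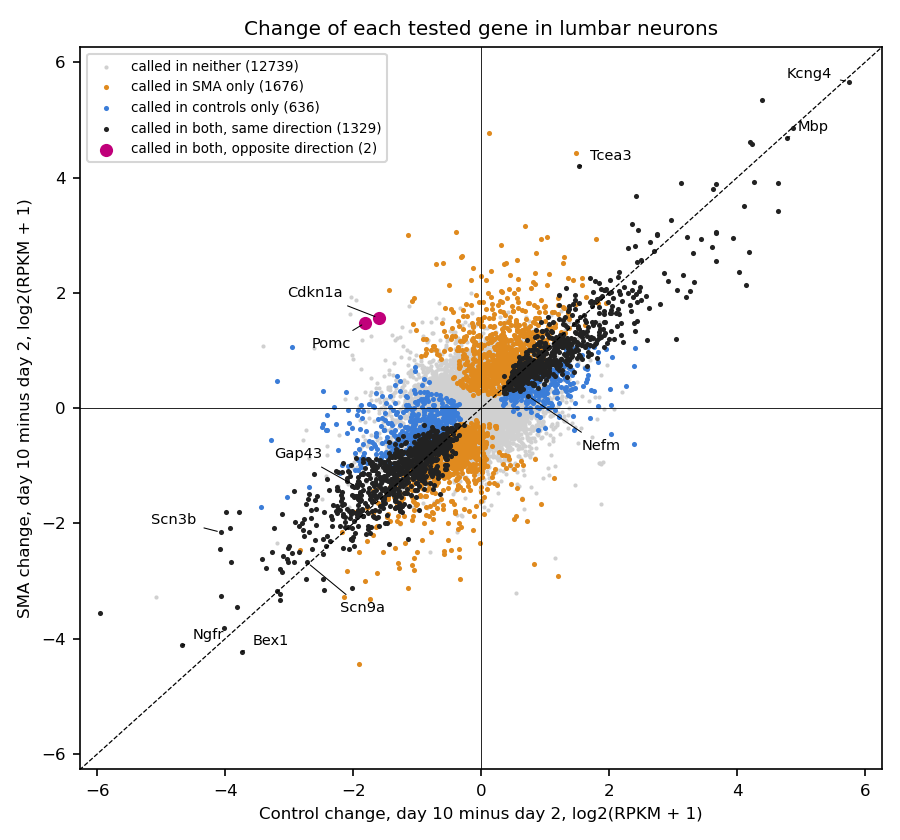
Change of each of 16382 genes from day 2 to day 10 in controls (horizontal axis) and in SMA (vertical axis), both as log2(RPKM + 1). Points are genes, coloured by the genotype in which they were called, and the dashed line marks equal change. The 1329 genes called in both the same way lie along the line, and Cdkn1a and Pomc are the 2 genes called in opposite directions.

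The largest rise in SMA was in Kcng4, a modifier subunit of Kv2 potassium channels found in fast motor neurons (ENSMUSG00000045246.11, chromosome 8, 119623854 to 119635680 on the minus strand in GENCODE M21, GRCm38). Its levels in SMA mice ran from 0 to 1.54 RPKM at day 2 with a median of 0.275. They were 0.0886, 3.73, 4.47, 9.71 and 12.1 at day 5, and 58.4, 67.5, 74.1, 75.5 and 80.5 at day 10. No day 10 mouse overlapped with a younger one. The change was 5.66 ± 0.40 (SE, adjusted p = 5.45e-11 by limma), against 5.75 ± 0.48 in controls, whose day 10 mice stood at 77.2 to 93.9 RPKM. The other 9 genes with the largest rise included Mobp, Mbp, Cldn11 and Mag, which are myelin genes of oligodendrocytes and are in the marker list above. Mbp, myelin basic protein, went from a mean of 22.1 to 480 RPKM in SMA and from 18.9 to 509 in controls. Trf_ann1, Gm15714, Tcea3 and A230065H16Rik were among the 9 as well.

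The first 2 of the 10 largest falls were in Bex1 and Ngfr. Bex1, a small adaptor protein abundant in growing neurons (ENSMUSG00000050071.8, X chromosome, 136213972 to 136215513, minus strand), stood at 124.7 to 152.6 RPKM at day 2 (median 135). It was at 49.4, 70.3, 77.0, 85.2 and 99.1 at day 5, and at 2.62, 3.12, 6.48, 11.7 and 14.4 at day 10. Ngfr, the p75 neurotrophin receptor of embryonic and injured motor neurons, stood at 36.5 to 60.3 RPKM at day 2 (median 46.6), at 9.61 to 26.6 at day 5 and at 0.673 to 2.82 at day 10. For both genes the 3 ages did not overlap. The Ngfr change was -4.12 ± 0.27 in SMA (adjusted p = 1.82e-11) and -4.67 ± 0.33 in controls. The other 8 falls included S100a11, Vim, an intermediate filament of immature cells, Cpne7, Cdkn1c, an inhibitor of the cell cycle, and 3 predicted genes, Gm12854, Gm7665 and Gm25820. Of those 3, Gm12854 and Gm7665 are annotated as processed pseudogenes, so their reads may belong to other copies.

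Growth cone genes fell as a group. Of 26 tested, 19 fell and 1 rose in SMA, 18 fell and 1 rose in controls, and 17 changed the same way in both. The list's median change was -0.72 in SMA and -0.88 in controls. Gap43, the main growth-associated protein of axons, stood at 874 to 1646 RPKM at day 2 (median 1043), at 664, 696, 732, 755 and 775 at day 5, and at 319, 385, 394, 469 and 527 at day 10. All 3 ages were apart in SMA. The change was -1.37 ± 0.12 (adjusted p = 2.97e-09), against -1.94 ± 0.15 in controls. Control mice ended lower, at 218.6 to 298 RPKM, and Gap43 was higher in SMA than in controls at day 10 by 0.68 ± 0.17 (adjusted p = 0.0108). Dcx, which binds microtubules in migrating neurons, fell by 2.31 in SMA and by 2.36 in controls. Marcksl1, a membrane protein of growth cones, fell by 2.45 and 2.64, and the tubulin Tubb2b by 2.53 and 2.47, though reads of tubulin genes can be shared between close copies. Basp1 and Tuba1a had larger values in SMA, -1.22 against -0.68 for Basp1 (unadjusted p of the difference 0.0175) and -0.89 against -0.54 for Tuba1a.

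Axon guidance genes followed the same course. Of 42 tested, 22 fell and 1 rose in SMA, 18 fell and none rose in controls, and 16 changed the same way in both. Epha4, an ephrin receptor that steers limb motor axons, went from a mean of 44.8 to 11 RPKM in SMA, a change of -1.89 against -1.68 in controls. Slit2, a secreted repellent, went from 94 to 35.4 RPKM (-1.39 against -1.37). Unc5c, a netrin receptor, fell by 1.72 and 1.3. The gene that rose in SMA was Robo3, a Slit receptor family member of commissural axons, from 0.486 to 5.08 RPKM, with -0.47 and no call in controls. Of 15 receptors for neurotrophic factors, 4 fell in SMA and 3 in controls, among them Gfra2 in both.

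Sodium channels were exchanged in SMA as in controls. Of 9 genes tested, 4 rose and 4 fell in each genotype, and 7 changed the same way in both. Scn9a, the Nav1.7 channel, stood at 20.8 to 46.0 RPKM at day 2 (median 41.3), at 16.0, 27.8, 38.1, 47.5 and 66.7 at day 5, and at 2.04, 3.97, 4.59, 6.59 and 7.68 at day 10. Its levels at days 2 and 5 overlapped and the day 10 mice lay below both. The change was -2.68 ± 0.31 in SMA and -2.72 ± 0.38 in controls. Scn3a, a fetal channel, fell by 1.80 in SMA and 1.90 in controls, and Scn2a1 by 1.54 and 1.52.

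The beta subunits Scn4b and Scn3b had smaller changes in SMA, by values that did not pass the adjusted test of the difference. Scn4b, which promotes the resurgent sodium current of fast-firing neurons, stood at 5.56 to 13.6 RPKM at day 2 (median 7.54), at 9.73 to 15.6 at day 5 and at 30.8, 39.5, 43.8, 44.5 and 48.4 at day 10. The day 10 mice were apart from the younger mice in SMA, but the 4 control mice at day 10 all stood higher, at 53.2 to 78.9. The change was 2.19 ± 0.19 in SMA and 3.32 ± 0.22 in controls, with a difference of -1.13 ± 0.29 (unadjusted p = 0.000506, adjusted p = 0.205). Scn3b, a beta subunit of immature neurons, went from 39.7 to 61.2 RPKM at day 2 over 34.4 to 48.8 at day 5 to 5.73, 9.42, 10.5, 11 and 19.4 at day 10. Control mice at day 10 stood at 0.563, 1.16, 1.69 and 6.86, so the genotypes overlapped in 1 mouse each. The change was -2.16 ± 0.26 in SMA and -4.06 ± 0.32 in controls, and the difference of 1.91 ± 0.41 had an unadjusted p of 6.75e-05 and an adjusted p of 0.1. Without control mouse 253 at day 10, the highest for Scn3b, the difference was 2.38 and was called (adjusted p = 0.000529 by limma). Scn2b went the other way and rose more in SMA, by 1.27 against 0.30, with an unadjusted p of the difference of 0.00295.

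Potassium and HCN channels rose or fell in 13 of 32 cases in SMA (8 and 5) and in 9 in controls (7 and 2), with 8 the same way in both. Kcna1, the Kv1.1 channel that gathers beside nodes of Ranvier, stood at 28.0 to 46.6 RPKM at day 2 (median 38.5), at 49.7, 50.1, 53, 55 and 59.8 at day 5 and at 81.9, 95.7, 100.9, 104.7 and 110.9 at day 10. The 3 ages did not overlap in SMA. Controls reached 115.4 to 133 RPKM, above all SMA mice. The change was 1.34 ± 0.12 in SMA and 2.04 ± 0.15 in controls, with an unadjusted p of the difference of 0.00128. Kcnab2, a Kv1 partner, rose by 1.41 in SMA and 1.67 in controls. Kcnd2, the Kv4.2 channel, fell by 1.81 in SMA and 1.24 in controls.

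**Figure D3:**
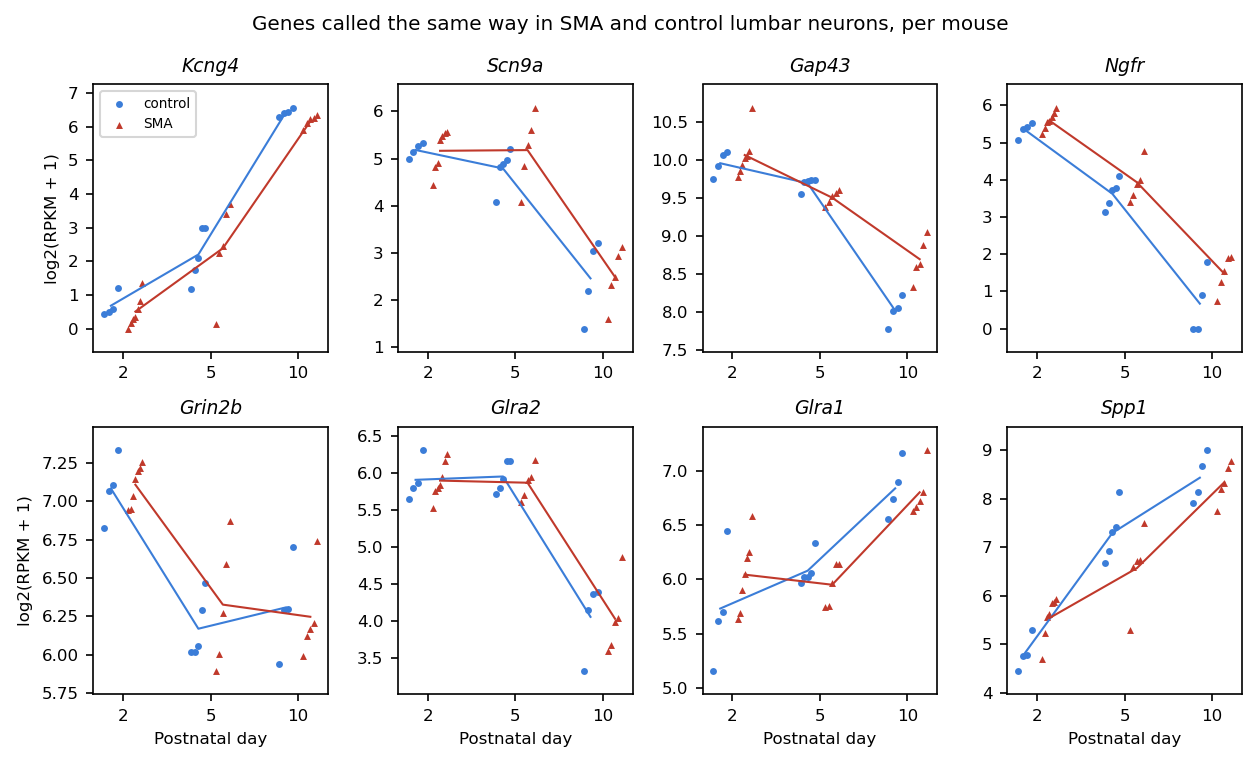
Level of 8 genes in each mouse as log2(RPKM + 1) against postnatal day, with a separate vertical range for each gene. Points are mice, sorted by value within a group, with controls as circles and SMA as triangles, and lines join group means. Each of the 8 changed the same way in both genotypes between days 2 and 10, with Kcng4, Glra1 and Spp1 rising and Scn9a, Gap43, Ngfr, Grin2b and Glra2 falling.

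Fetal and adult receptor subunits were exchanged in SMA. Glra2, the fetal glycine receptor subunit, stood at 45.1 to 75.1 RPKM at day 2 (median 56), at 47.7 to 71.2 at day 5 and at 11, 11.7, 14.8, 15.5 and 28.0 at day 10. Glra1, the adult subunit, stood at 48.8 to 94.7 RPKM at day 2 (median 65.2), at 52.5 to 69.8 at day 5 and at 97.8, 100.2, 104.6, 110.4 and 145 at day 10. For both, days 2 and 5 overlapped and day 10 was apart. Glra2 changed by -1.87 ± 0.19 in SMA and -1.85 ± 0.23 in controls, with a difference of -0.01 ± 0.30. Glra1 changed by 0.76 ± 0.17 and 1.10 ± 0.21. Of 18 genes of GABA and glycine receptors and chloride transporters, 3 rose and 7 fell in SMA against 2 and 2 in controls, and 4 were shared.

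Of 22 glutamate receptor genes, 2 rose and 7 fell in SMA, 2 rose and 6 fell in controls, and 7 were shared. Grin2b, the juvenile NMDA receptor subunit, stood at 122.2 to 152 RPKM at day 2 (median 141), at 58.5, 63.3, 76.4, 95.3 and 116.01 at day 5 and at 62.6, 68.8, 71, 73 and 106.2 at day 10. The day 5 and day 10 mice overlapped and lay below all day 2 mice. Day 5 against day 2 was -0.78 in SMA (adjusted p = 0.00455) and -0.92 in controls, and day 10 against day 2 was -0.86 and -0.78. Gria3 rose by 1.10 in SMA and 1.58 in controls, while Gria2, which keeps AMPA receptors closed to calcium, fell by 1.16 in SMA and 0.67 in controls (unadjusted p of the difference 0.0146).

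Neurofilament genes had smaller rises in SMA, by values that did not pass the adjusted test of the difference. Of 24 genes of neurofilaments and the stable cytoskeleton, 10 rose and 4 fell in SMA, 9 rose and 3 fell in controls, and 10 were shared. Nefh, the heavy neurofilament chain that marks the mature axon, stood at 467 to 554 RPKM at day 2 (median 513), at 498, 534, 541, 666 and 710 at day 5 and at 1083, 1195, 1221, 1268 and 1460 at day 10. Control mice at day 10 stood at 1560 to 1800, above all 5 SMA mice. The change was 1.27 ± 0.10 in SMA (adjusted p = 1.36e-10) and 1.84 ± 0.11 in controls, with a difference of -0.57 ± 0.15 (unadjusted p = 0.00063, adjusted p = 0.205).

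Nefm, the medium chain (ENSMUSG00000022054.11, chromosome 14, 68082590 to 68124846, minus strand), stood at 4420 to 4933 RPKM at day 2 (median 4684), at 4282 to 5456 at day 5 and at 5005, 5170, 5584, 5664 and 5863 at day 10. Controls started at 3806 to 4272, below all day 2 SMA mice, and ended at 6278 to 7120, above all day 10 SMA mice. The change was 0.22 ± 0.07 in SMA (adjusted p = 0.0196) and 0.72 ± 0.08 in controls. The difference of -0.51 ± 0.10 had an unadjusted p of 3.08e-05, among the smallest over all genes, and an adjusted p of 0.0898. The SMA rise did not pass without mouse 196 at day 10 (adjusted p = 0.0527), without mouse 258 (0.0516), under quantile normalization (0.104), with no filter (0.0627), with only the groups compared (0.0556) or with only SMA groups (0.0559). Nefl, the light chain, changed by 0.15 in SMA (adjusted p = 0.0934) and 0.49 in controls. Ina, a filament of young neurons, fell by 0.55 and 0.50, and Mapt, which encodes tau, by 1.43 and 1.39.

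Most synaptic vesicle genes called in SMA were called the same way in controls. Of 33 tested, 9 rose and 8 fell in each genotype, and 15 changed the same way in both. The difference between genotypes had an unadjusted p under 0.05 by limma for 6 of the 33, against 8.41% of all genes. It was called for none. Stx1a, a syntaxin of the fusion machinery, went from a mean of 52.7 to 7.43 RPKM in SMA (-2.67 against -2.93 in controls). Syt1, a calcium sensor for release, fell by 2.06 and 2.14, and Syt2, the sensor of fast synapses, rose by 0.43 and 0.78. Syt3 rose in controls (0.86) and did not pass in SMA (0.28, unadjusted p of the difference 0.003).

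In cholinergic transmission 1 of 12 genes rose and 3 fell in SMA, against 4 and 2 in controls, with 3 shared. The 1 rise was near the 8.55% of all genes that rose in SMA. Chat, which makes acetylcholine, stood at 13.6 to 26.3 RPKM at day 2 (median 16.2), at 28.2, 30.0, 33.9, 35.6 and 38.0 at day 5 and at 22.4, 31.7, 31.9, 33.7 and 33.9 at day 10. It rose by 0.77 ± 0.17 in SMA, with 0.88 by day 5 (adjusted p = 0.00377), and by 1.16 ± 0.20 in controls. Control mice at day 10 stood at 37.9 to 44.1, above all SMA mice, and the difference in change was -0.39 ± 0.26 (unadjusted p = 0.145). Ache, Slc10a4 and Chrm2 rose in controls by 0.49, 0.53 and 0.84. In SMA they changed by 0.16, 0.10 and 0.28 and did not pass.

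Markers of motor neuron subtypes differed from one another. Of 20 tested, 4 rose and 4 fell in SMA and 3 rose and 2 fell in controls, with 5 shared. Spp1, osteopontin, an alpha motor neuron marker, stood at 25.0 to 59.8 RPKM at day 2 (median 48.1), at 38.3, 95.9, 103, 105.95 and 180 at day 5 and at 215.05, 293, 319, 398 and 436 at day 10. It rose by 2.80 ± 0.29 in SMA and 3.61 ± 0.35 in controls. Mmp9, a protease of fast motor neurons, stood at 4.09 to 32.6 RPKM at day 2 (median 14.8), at 13.8, 15.1, 15.4, 17.0 and 17.4 at day 5 and at 18.7, 38.5, 41.1, 42.3 and 49.4 at day 10. The SMA ages overlapped, whereas control mice went from 1.72 to 11.4 at day 2 over 12 to 47.6 at day 5 to 52.4 to 76.3 at day 10. The change was 1.20 ± 0.37 in SMA (adjusted p = 0.0218) and 3.05 ± 0.45 in controls (unadjusted p of the difference 0.00344, adjusted p = 0.282). The SMA call was lost without day 2 mouse 206 (adjusted p = 0.0523) and without day 10 mouse 249 (0.0648) or 258 (0.0527). Chodl, chondrolectin, another gene of fast motor neurons, stood at 408 to 593 RPKM at day 2 (median 448) and at 224.6, 279, 318, 373 and 416 at day 10. It fell by 0.58 ± 0.13 in SMA (adjusted p = 0.00114), with 0.008 ± 0.15 in controls, and was lower in SMA at day 10 (-0.64, adjusted p = 0.0226).

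Among 20 calcium buffers and pumps, 3 rose and 7 fell in SMA and 5 rose and 5 fell in controls, with 6 shared. Calb2, the buffer calretinin, stood at 5.71 to 18.9 RPKM at day 2 (median 8.57), at 6.04 to 20.9 at day 5 and at 69.0, 92.4, 105.1, 141 and 150 at day 10, apart from all younger mice. It rose by 3.50 ± 0.30 in SMA and 4.11 ± 0.37 in controls. Of 13 genes of the perineuronal net and matrix, 6 rose and 2 fell in SMA and 6 rose and 1 fell in controls, with 6 shared. Hapln4, a link protein of the net, went from a mean of 50.5 over 86 to 117.8 RPKM in SMA (1.21 against 1.74, unadjusted p of the difference 0.0121), and Acan, its core proteoglycan, from 2.06 to 5.79.

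**Figure D4:**
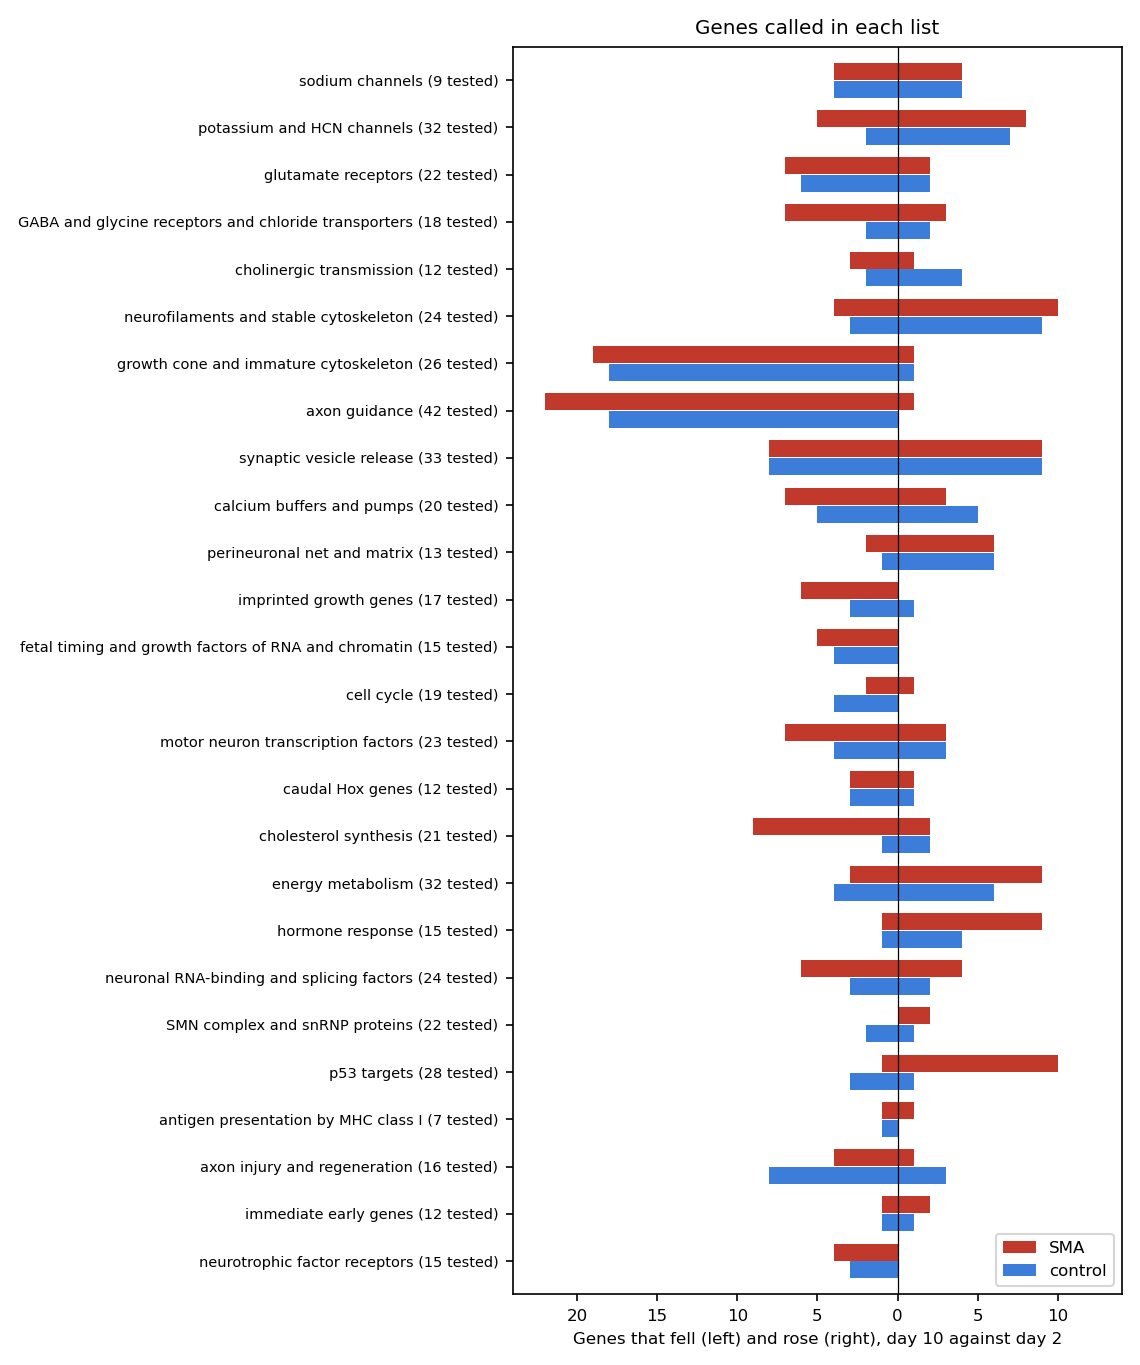
Number of genes in each list that fell (bars to the left) or rose (bars to the right) between days 2 and 10, for SMA and for controls. The number tested is given after each list name. Growth cone genes fell 19 times in SMA and 18 times in controls. Cholesterol synthesis genes fell 9 times in SMA and 1 time in controls, and p53 targets rose 10 times in SMA and 1 time in controls. Counts of the genotypes are not comparable in size, since they had different numbers of mice. The difference between genotypes was called for no gene, and the p53 list was known from earlier results of these data.

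Some genes of fetal programs fell in SMA. Of 15 genes of fetal timing and of growth, 5 fell in SMA and 4 in controls, all 4 shared, among them Sox4, a factor of new neurons (-1.23 against -1.41), and Sox12 (-0.86 against -0.93). Of 17 imprinted growth genes, 6 fell in SMA, none rose and 11 were not called, against 3 falls and 1 rise in controls. Nnat, neuronatin, went from a mean of 350.5 to 88.8 RPKM (-1.98 against -2.12). Of 23 motor neuron transcription factors, 3 rose and 7 fell in SMA and 3 rose and 4 fell in controls, with 6 shared. Nr2f2 fell by 1.37 in SMA and 1.40 in controls, Lhx4 rose by 1.16 and 1.18, and Nfia, a factor of late differentiation, by 0.61 and 0.70. Of 12 caudal Hox genes, which hold lumbar identity, 1 rose and 3 fell in each genotype, and 3 were shared. Among all genes 8.55% rose and 9.8% fell in SMA, so the 1 rise was near that share. Among 15 genes of hormone response, 9 rose and 1 fell in SMA and 4 rose and 1 fell in controls, with 5 shared. Klf9, a target of thyroid hormone and glucocorticoids, went from 6.36 to 21.6 RPKM (1.70 against 2.03), and Tsc22d3, a glucocorticoid target, rose by 0.88 against 1.41 (unadjusted p of the difference 0.00439). In other lists, 9 of 32 energy metabolism genes rose and 3 fell in SMA against 6 and 4 in controls. Of 24 neuronal RNA-binding factors 4 rose and 6 fell against 2 and 3, of 19 cell cycle genes 1 rose and 2 fell against 0 and 4, and of 12 immediate early genes 2 rose and 1 fell against 1 and 1. The SMA counts of the cell cycle list were near the shares of all genes.

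In cholesterol synthesis 9 of 21 genes tested fell, 2 rose and 10 were not called in SMA, and 1 fell and 2 rose in controls, with 3 shared. The list's median change was -0.44 in SMA and 0.037 in controls. The difference between genotypes was called for none of the genes and had an unadjusted p under 0.05 for 2 of the 21, near the 8.41% of all genes. Nsdhl, a sterol dehydrogenase, stood at 26.3 to 47.9 RPKM at day 2 (median 41.0), at 20.9, 30.9, 35.8, 37.1 and 40.1 at day 5 and at 14.3, 15.7, 20.3, 21.4 and 29.8 at day 10. The lower 4 of the day 10 mice lay below all day 2 mice. Nsdhl fell by 0.92 ± 0.18 in SMA (adjusted p = 0.000544) with 0.037 ± 0.22 in controls, and the difference had an unadjusted p of 0.00244. Sqle, squalene epoxidase, stood at 59.5 to 79.8 RPKM at day 2 (median 72.4) and at 36.9, 38.0, 42.2, 42.4 and 45.4 at day 10, apart from day 2. It fell by 0.75 in SMA with -0.047 in controls (unadjusted p of the difference 0.00832). Dhcr7 and Tm7sf2, sterol reductases, fell by 0.87 and 1.18 in SMA, and changed by -0.52 and -0.66 in controls without a call. The fall of Mvk did not pass without day 10 mouse 250 (adjusted p = 0.0835) or that of Hmgcs1 without mouse 258 (0.0564), and that of Mvd (adjusted p = 0.0472) was lost in 14 of 20 alternatives, among them leaving out any 1 SMA mouse (up to 0.114). Fdps fell in both genotypes (-0.95 and -0.98), and the rise of Sc5d was shared too.

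The promoters of the cholesterol synthesis genes were read for motifs in RefSeq windows of GRCm38.p6, 250 bases before the transcript start. Sterol genes are known to be driven by SREBP factors, which bind sterol regulatory elements beside CCAAT boxes bound by NF-Y. A window was found for 14 of the 21 genes. CCAAT, searched on both strands (ATTGG on the printed strand is its reverse), was in 13 of the 14 and in 37.5% of all 27025 genes with a window. The sterol regulatory element TCACNCCAC, also on both strands, was in 1 of the 14, Hmgcs1, and in 1.22% of all genes. Of the 7 genes that fell in SMA and had a window, 6 held CCAAT, as did all 7 of the genes that did not fall. A match is a description of these letters, not a bound site. The stretches of 3 genes that fell in SMA are shown to let their spacing be compared, 5′ to 3′ on the gene's strand with the CCAAT letters of either strand in capitals.
Nsdhl (chrX:72918382-72918520, plus strand): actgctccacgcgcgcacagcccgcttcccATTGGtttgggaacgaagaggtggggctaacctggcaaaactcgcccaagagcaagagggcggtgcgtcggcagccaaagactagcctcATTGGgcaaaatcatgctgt
Dhcr7 (chr7:143830099-143830199, plus strand): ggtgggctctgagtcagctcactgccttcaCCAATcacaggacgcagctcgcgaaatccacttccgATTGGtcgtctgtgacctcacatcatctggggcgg
Tm7sf2 (chr19:6067863-6067927, minus strand): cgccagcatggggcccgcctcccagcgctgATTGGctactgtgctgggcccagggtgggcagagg
Nsdhl and Dhcr7 each held 2 matches and Tm7sf2 held 1.

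At day 5 the change was still small in number. Against day 2, SMA mice changed 303 genes (1.85%), of which 38.9% rose, and controls changed 1.51% of the genes. Between days 5 and 10, SMA mice changed 1795 genes (11%), 911 up and 884 down. Of the 3007 genes called in SMA between days 2 and 10, 1269 were also called between days 5 and 10 and 1600 in neither of the shorter intervals. Of the 303 early genes, 58.1% were called the same way at day 10. The early share fell from 1.85% to 1.1% without SMA mouse 76 at day 5, to 1.17% without mouse 77, and to 0.653% when only the groups compared were in the fit.

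Late arrival was counted from the early steps of controls. Of the genes that controls changed by day 5, 84 (33.9%) were called the same way in SMA by day 5, 67 were called at day 10 and not at day 5, and 97 were called at neither age. The same count from the 303 early SMA genes was alike, with 84 (27.7%) called in controls by day 5, 74 at day 10 only and 145 at neither. Of these early control genes, 240 had the control sign in SMA at day 5. The genotype difference in the change from day 2 to day 5 called 0 genes by limma, with 1058 at an unadjusted p under 0.05 and a smallest adjusted p of 0.518. A delay was thus not shown for any gene. Some genes called in controls by day 5 were not called in SMA by then. Mmp9 changed by 0.043 by day 5 in SMA and by 1.76 in controls, Nefm by -0.032 and 0.36, Nefh by 0.18 and 0.48, and Spp1 by 1.03 (adjusted p = 0.0555) and 2.47. Ngfr and Hapln4 had changed by day 5 in both genotypes, Ngfr by -1.66 and -1.72 and Hapln4 by 0.77 and 0.99.

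A few genes were called in controls and not in SMA between days 2 and 10. They were chosen by an unadjusted p of the difference under 0.05 and the size of the difference, which makes them a description. The rises were Adam22, a partner of the LGI1 synaptic protein, Myh14, a non-muscle myosin, Gpld1, Cela1 and Pigc, and the falls included Rfc3, a clamp loader of DNA replication, Mfap2, Efcab10 and Gm20507. Day 2 means of these rises were 74.3, 9.16, 6.7, 13.8 and 6.43 RPKM in SMA. In controls they were lower, at 57.7, 2.69, 3.85, 7.2 and 4.26. Those of the named falls were 17.5, 7.93, 14.3 and 6.91 in SMA. In controls they were higher, at 33, 11.2, 16.4 and 10.4. None had a genotype call at day 2. Adam22 stood at 40.3 to 104.5 RPKM in SMA at day 2 (median 76.4), at 38.1 to 111.3 at day 5 and at 38.8, 46.4, 48.9, 56.4 and 185.8 at day 10. The last value is mouse 196, and the other 4 lay below the day 2 median. Controls rose to 146 to 259.4 at day 10 from 36.6 to 84.7.

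The end level was compared directly at day 10, where 0.775% of the genes differed between genotypes, 91.3% of them higher in SMA. That share was 78.4% under quantile normalization and 81.4% with sample weights. The median difference over all genes was 0.0528 in the main fit and -0.0151 under quantile normalization. At day 2 Smn1 and Snrpa1 were the 2 genes that differed. Among the day 10 differences, 33 were among the control maturation genes, and 29 of these 33 ended short of the control level. They comprised 25 control falls that ended higher in SMA and 4 control rises that ended lower, whatever the SMA change was. Some of the 25 did not fall in SMA. Cdkn1a rose there by 1.56 with a call, and was 1.69 higher than in controls at day 2 without a call. Gemin4, Lsm2 and Ccng1 had positive SMA changes of 1.06, 0.25 and 0.16 without a call. Such genes are not steps that SMA mice made in part. Both contrasts use the control day 10 mice, which tilts such genes towards ending short, so the split is a description. The 25 included Gap43 and Scn3b, Ldha (0.58, adjusted p = 0.0173), the lactate dehydrogenase of glycolysis, Pgrmc1 (0.74, adjusted p = 0.0305), a membrane heme and sterol binding protein, and Lsm2 and Lsm4, proteins of RNA processing (0.98 and 0.63, adjusted p = 0.0151 and 0.0274). These last 4 were chosen after their values were seen. The 4 that stayed lower were Arhgap9, BC049762, Impdh1 and Susd2. Crip2, Tcea3 and Timeless rose past the control level and Lhpp fell past it.

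**Figure D5:**
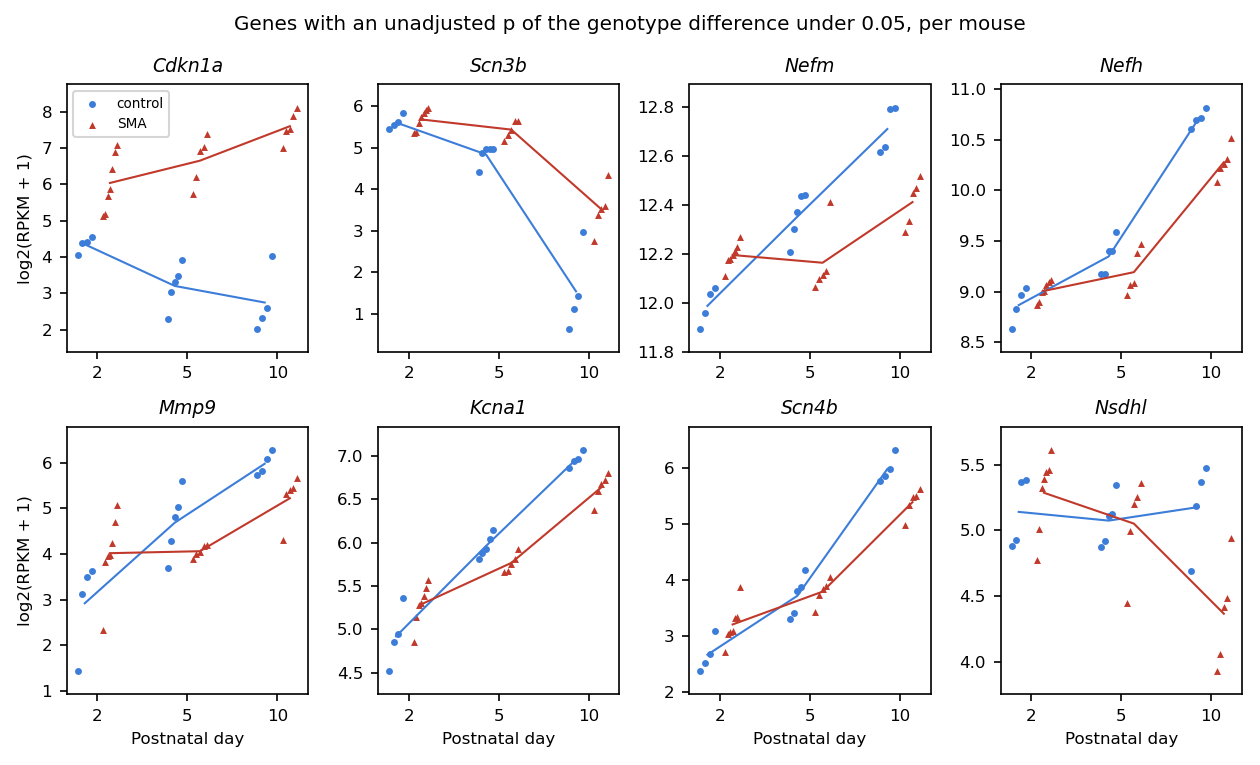
Level of 8 genes in each mouse as log2(RPKM + 1) against postnatal day, with a separate vertical range for each gene. Points are mice, sorted by value within a group, with controls as circles and SMA as triangles, and lines join group means. The genes were picked for an unadjusted p of the genotype difference under 0.05, and no difference passed after adjustment. Control lines run steeper for Scn3b, Nefm, Nefh, Mmp9, Kcna1 and Scn4b, and Cdkn1a goes opposite ways.

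Some changes were called in SMA and either not called or called the other way in controls. Cdkn1a, the p21 inhibitor of the cell cycle and a p53 target (ENSMUSG00000023067.14, chromosome 17, 29090976 to 29100727, plus strand), stood at 33.9 to 135 RPKM at day 2 (median 57.7), at 52.2, 72.7, 119.1, 129 and 167.1 at day 5 and at 128.2, 175.9, 184.1, 235 and 276 at day 10. Control mice went down over the same days, from 15.6 to 22.4 at day 2 over 3.88 to 14.1 at day 5 to 3.09, 4, 5.09 and 15.4 at day 10. All SMA mice stood above all control mice, at each age. The change was 1.56 ± 0.35 in SMA (adjusted p = 0.00194) and -1.60 ± 0.43 in controls (adjusted p = 0.0112). Its difference of 3.16 ± 0.55 had the smallest p of all genes (unadjusted p = 3.57e-06, adjusted p = 0.0584 by limma). The difference passed without control mouse 253 (adjusted p = 0.00164), without SMA mouse 206, 207 or 199 (0.0166, 0.0288 and 0.0245), with RPKM of at least 5 (0.0435) and with sample weights (0.00918). Over all alternatives its adjusted p ran up to 0.346. Pomc, the precursor of melanocortins and beta-endorphin, was the other gene called in opposite directions. It stood at 0 to 4.63 RPKM at day 2 and 3.59 to 13.9 at day 10 in SMA, overlapping, and at 4.07 to 9.65 and 0 to 4.53 in controls. The rise in SMA did not pass without day 10 mouse 199 (adjusted p = 0.0522) or with a pseudocount of 0.1 (0.0685), and the genotype difference passed without control mouse 252 (0.0356).

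Of 28 p53 targets, 10 rose and 1 fell in SMA, against 1 rise and 3 falls in controls, with 1 shared. Plk2, Pmaip1 and Mdm2 rose by 1.25, 1.93 and 1.08 in SMA and changed by -0.56, 0.15 and 0.27 in controls without a call. The list's median was 0.51 in SMA and -0.11 in controls. This list was known from earlier results of these data to be higher in SMA, so its direction is not independent evidence. Of 16 genes of axon injury and regeneration, 1 rose and 4 fell in SMA and 3 rose and 8 fell in controls. Of 22 SMN complex and snRNP genes, 2 rose in SMA, Strap and Lsm11, and 1 rose and 2 fell in controls. The 2 rises were near the 8.55% of all genes that rose in SMA.

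The genes called in SMA alone with the largest difference were Gm15714, Dydc2, Cpne2, Hist1h4h and Gys1 for rises and Gm25911, Gm22567, Eml2, Gm23153 and Gm15662 for falls, chosen in the same way. Gm25911 is annotated as a miRNA, and Gm22567 and Gm23153 as miscellaneous RNA. Day 2 means of the falls were 10.1, 13.7, 21.7, 17.2 and 21.5 RPKM in SMA. In controls they were lower, at 1.52, 3.38, 8.04, 3.23 and 8.46. None of the falls had a genotype call at day 2 or day 10. Gm25911 and Gm22567 ended near 0 in SMA, at means of 0.806 and 0.736. Tcea3, an elongation factor of transcription that rose in both genotypes, stood at 0 to 1.10 RPKM at day 2 and 0 to 1.3 at day 5. At day 10 it was at 7.67, 18.1, 25.1, 36.5 and 44.5, apart from all younger mice. Controls rose by 1.53, against 4.19 in SMA. They reached 0.280 to 3.83 at day 10, overlapping with 0 to 0.408 at day 2. The SMA level was higher at day 10 by 2.91 (adjusted p = 0.000118 by limma). Cpne2, a calcium-dependent membrane binding protein, stood at 3.03 to 14.4 RPKM at day 2 (median 10.3), at 3.59 to 27.3 at day 5 and at 24.4, 28.6, 35.5, 44.9 and 48.6 at day 10, while control mice stood at 4.28 to 5.37 at day 2 and at 0.348 to 5.59 at day 10, overlapping and without a call. Its difference was 2.94 ± 0.61 (unadjusted p = 3.9e-05, adjusted p = 0.0898). Gys1, the muscle form of glycogen synthase, went from a mean of 39.5 over 90.05 to 209 RPKM in SMA, against 53.8 and 57.7 at days 2 and 10 in controls. Hist1h4h shares its coding sequence with other histone H4 genes, so its reads are uncertain. Atox1, a copper chaperone, went from a mean of 610 to 909 RPKM in SMA and from 686 to 629 in controls (unadjusted p of the difference 2.89e-05, adjusted p = 0.0898).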

How the data were processed

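Per the labels' protocols, lumbar neurons were captured by laser and sequenced with Smart-seq2. The authors deposited 1 table of RPKM for 39410 rows and 168 libraries; the submitters' processing notes name STAR 2.4.1c and the builds mm10 and hg19, with no role. Other upstream steps are not given in the sources used here. Library depth was recovered from the steps of low values; 65.6% to 72.6% of low values per library lay within 0.1% of whole reads, so no count test was run.

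RPKM were averaged per mouse. A gene was tested where RPKM was at least 1 in 4 mice. log2(RPKM + 1) was fitted with limma 3.58.1 in R 4.3.3 (lmFit, eBayes with trend), two-sided, adjusted over 16382 genes by Benjamini and Hochberg. The script was tested on simulated data. Positions are from GENCODE M21 for 35283 rows (89.5%), and strand use in counting is not given.

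The members, lists and naming rules were chosen with earlier results of these data known. Named genes were the 10 largest rises and falls in SMA (adjusted p under 0.05, ages apart, mean at least 10 RPKM), list genes, and the genes whose change differed most between genotypes. Alternatives are in the closing section. Results of a few named genes are not reported here. P-values measure the spread between mice.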

Additional observations from a re-analysis of the deposited data

Results flagged for a closer look

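For the genes shown mouse by mouse and for the marker sums, groups of 4 to 7 mice were tested for a mouse far from the rest by the gap to its nearest neighbour on the log2 scale. In 18 groups, 10.1% of those tested, a mouse stood apart, where chance gives about 1 in 20. Among SMA mice at day 2, mouse 209 was highest for Gap43 (1646 RPKM), mouse 211 highest for Calb2 (18.9) and lowest for Cpne2 (3.03), and mouse 206 highest for the summed oligodendrocyte markers (144). At day 5, SMA mouse 76 was highest for Nefm (5456) and mouse 31 lowest for Calb2 (6.04). At day 10, SMA mouse 196 was lowest for Chat (22.4) and highest for Adam22 (185.8), and mouse 250 was lowest for Mmp9 (18.7).

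Control mice stood apart as well. Mouse 75 at day 5 was lowest for Scn3b (20.2) and Gap43 (751) and highest for Glra1 (79.7). Mouse 29 at day 5 was highest for Smn1 (43.8) and lowest for Calb2 (10.4), and mouse 30 at day 5 was lowest for Cpne2 (1.04) and highest for Tcea3 (0.0721, with the other mice at 0). At day 2, mouse 20 was highest for Tcea3 (0.408, the others at 0) and lowest for the oligodendrocyte sum (21.7).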

How the results depend on the processing

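Calls, as a share of genes tested, were recomputed with a pseudocount of 0.1, without the filter, with RPKM of at least 5, with only the groups compared or only SMA groups in the fit, with each library as its own sample, with quantile normalization, with sample weights and without each mouse in turn. For the genotypes at day 10 these were added after seeing the data. Without 1 mouse, the share was 14.8% to 18.2% for SMA day 10 against day 2, 1.1% to 2.12% for day 5 against day 2, 8.2% to 11.2% for day 10 against day 5 and 9.1% to 10.7% for control day 10 against day 2. Shared genes ranged from 1070 to 1386 without 1 mouse, and were 1734 with sample weights. With only the groups compared, day 5 against day 2 had 0.653%, day 10 against day 5 had 6.38% and genotypes at day 10 had 0.305%. With only SMA groups the early share was 0.836%. The difference between genotypes from day 2 to day 10 called 1 gene (Cdkn1a) with RPKM of at least 5, 3 (Cdkn1a, Nefm and Scn3b) with sample weights, and 0 to 3 without 1 mouse. From day 2 to day 5 it called 0 to 1, the 1 without SMA mouse 76. Genotypes at day 10 had 1.35% with sample weights and 0.403% to 0.836% without 1 mouse, the lowest without SMA mouse 250, with 0.464% without control mouse 247. With 20 and 28 as the only control day 2 mice, controls had 6.94%, and with 240 and 244 they had 7.56% and the difference called 1 gene, Eva1c. The cause of these moves was not tested. Of 283 named or listed genes called in SMA, none changed sign under any setting, and up to 38 lost their call (38 without SMA mouse 249 or 258 at day 10, 32 with only SMA groups). No paired analysis was possible because no mouse is in more than 1 of the groups compared. Depth limits genes of low RPKM most.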
